A study of Mus musculus with 4 samples.

Results

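The acute phase proteins are secreted defence and transport proteins whose genes are switched on during inflammation, best known from the liver. Here 8 of their genes were followed: Saa1, Saa2, Saa3, Lcn2, Hp, Lrg1, Ltf and C3. They were taken by symbol from the 52636 genes in the deposited matrices, and all 8 were found. The data are 10x 3' single-cell libraries of EpCAM+ cells sorted from the mammary glands of mice 6 months of age. Every mouse carried hormone pellets of estradiol (E2) and progesterone (P4). The 4 libraries are Y541S mice dosed with giredestrant, Y541S mice dosed with vehicle, WT mice dosed with giredestrant and WT mice dosed with vehicle, with 1 library per group. Y541S is a point mutation of Esr1, the estrogen receptor gene, and giredestrant is an oral estrogen receptor antagonist and degrader, given at 30 mg/kg by mouth daily for 4 days. The vehicle is labelled MCT. The labels do not say how many mice a library pools, in which cells the mutant allele is present or whether it is heterozygous.

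Serum amyloid A proteins (Saa1, Saa2, Saa3) are apolipoproteins that bind lipid and attract leukocytes. Lipocalin 2 (Lcn2) withholds iron from bacteria by binding siderophores, lactoferrin (Ltf) binds iron itself and is a milk protein, and haptoglobin (Hp) captures free haemoglobin. Lrg1 is a secreted leucine-rich glycoprotein that modifies TGF-beta signalling, and C3 is the central complement component. In liver many acute phase genes respond to IL-6 and IL-1 type cytokines through STAT3, NF-kB and C/EBP factors. In the mammary gland several of the proteins named here are secreted into milk or appear during involution, the regression of the gland after weaning.

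Levels were compared within 3 epithelial classes, each set by a sum of UMIs per 10000. Hormone-sensing luminal cells had at least 10 from Esr1, Prlr, Areg and Foxa1, secretory luminal cells at least 10 from Wfdc18, Csn3, Elf5 and Kit, and basal cells at least 20 from Acta2, Myh11, Mylk and Tagln. One label calls the cells mature luminal, and basal and secretory cells were present too. Only barcodes passing a single gate were used, and hormone-sensing cells were split at 3 Krt14 UMIs per 10000. The Krt14-low hormone-sensing class held 1499 cells in the Y541S giredestrant library, 2074 in Y541S vehicle, 1034 in WT giredestrant and 627 in WT vehicle. The secretory class held 607 to 1553 cells and the basal class 998 to 4832. The Krt14-high class reached 980 cells in Y541S giredestrant but 22 or fewer in each of the other 3 libraries. Pgr, the progesterone receptor gene, stood at 91.9 to 462 CPM in Krt14-low hormone-sensing cells and at 5.70 to 13.0 CPM in the secretory and basal cells of the 4 libraries. Leaving out Krt14, on which the split rests, the basal marker list summed to 1882 to 2203 CPM in basal cells and to 59.0 CPM or less in Krt14-low hormone-sensing and secretory cells. Kept barcodes had a median of 6268 UMIs in Y541S giredestrant, 15290 in Y541S vehicle, 21927 in WT giredestrant and 10868 in WT vehicle, and pairs of libraries shared 7 to 23 barcode sequences. Esr1 mRNA in Krt14-low hormone-sensing cells stood at 390 CPM in Y541S giredestrant, 275 in Y541S vehicle, 538 in WT giredestrant and 322 in WT vehicle; the gene is used by the gate, and counts per gene do not show the mutation, so the genotype labels were not checked by it.

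The 3 Saa genes lie on chromosome 7 within 42316 bases (GRCm38): Saa3 at 46711998 to 46715700 and Saa1 at 46740497 to 46742980 on the minus strand, and Saa2 at 46751790 to 46754313 on the plus strand. Saa1 and Saa2 transcripts are 94.4% identical and differ at 17 positions of their last 300 bases, the part a 3' library reads, so counts may be shared between these genes and each is uncertain on its own. Lcn2 lies on chromosome 2 at 32384633 to 32388252, Hp on chromosome 8 at 109575128 to 109579172, Lrg1 on chromosome 17 at 56119678 to 56122001 and C3 on chromosome 17 at 57203970 to 57228136, all on the minus strand. Ltf lies on chromosome 9 at 111019271 to 111042767 on the plus strand.

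The 250 bases before the start of the 3 Saa genes, Lcn2 and Lrg1 are shown because these members were all lower with giredestrant in hormone-sensing cells (RefSeq, GRCm38.p6, written 5' to 3' on the gene's strand; capitals mark a C/EBP motif, which the Lrg1 window lacks):
Saa1, chr7:46742981-46743230 (- strand): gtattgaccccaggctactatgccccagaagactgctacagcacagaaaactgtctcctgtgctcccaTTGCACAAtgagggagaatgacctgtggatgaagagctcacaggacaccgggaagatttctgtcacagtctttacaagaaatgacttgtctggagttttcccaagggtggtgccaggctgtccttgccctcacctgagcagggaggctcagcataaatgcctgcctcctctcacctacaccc
Saa2, chr7:46751583-46751832 (+ strand): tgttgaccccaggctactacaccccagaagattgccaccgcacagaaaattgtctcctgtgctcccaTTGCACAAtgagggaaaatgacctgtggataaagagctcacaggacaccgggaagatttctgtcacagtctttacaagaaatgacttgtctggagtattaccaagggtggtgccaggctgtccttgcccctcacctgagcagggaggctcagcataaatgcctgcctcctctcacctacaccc
Saa3, chr7:46715677-46715926 (- strand): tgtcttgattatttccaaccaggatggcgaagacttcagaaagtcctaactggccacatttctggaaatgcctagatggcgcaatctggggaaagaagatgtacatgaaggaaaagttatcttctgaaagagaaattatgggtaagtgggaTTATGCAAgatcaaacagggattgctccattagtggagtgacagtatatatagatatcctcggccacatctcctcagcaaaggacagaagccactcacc
Lcn2, chr2:32387740-32387989 (- strand): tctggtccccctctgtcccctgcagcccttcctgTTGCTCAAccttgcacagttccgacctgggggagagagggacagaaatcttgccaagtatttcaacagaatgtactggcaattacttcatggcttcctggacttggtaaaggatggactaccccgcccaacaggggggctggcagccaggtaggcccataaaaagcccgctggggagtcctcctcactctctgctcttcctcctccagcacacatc
Lrg1, chr17:56121947-56122196 (- strand): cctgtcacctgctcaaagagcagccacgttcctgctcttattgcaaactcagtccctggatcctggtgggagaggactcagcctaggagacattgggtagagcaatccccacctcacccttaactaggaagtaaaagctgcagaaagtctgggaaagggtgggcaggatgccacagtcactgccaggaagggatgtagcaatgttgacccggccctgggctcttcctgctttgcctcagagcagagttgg
The Saa1 and Saa2 windows are 95.6% identical over 249 aligned bases, and their matches both read TTGCACAA. The C/EBP motif TTGCNNAA, searched on both strands, is in the 250-base window of 6 of the 7 members with a RefSeq promoter in the table used (Saa1, Saa2, Saa3, Lcn2, Ltf and C3, not Lrg1), and in 9.56% of all 32851 promoters of the table. The STAT motif TTCNNNGAA (7.02% of all promoters), an NF-kB consensus (3.90%) and the full palindromic estrogen response element (0.0639%) had no match in the windows of these 7 genes. A match is a string of letters and not a measured binding site. The windows end at the RefSeq start, which differs from the gene positions given above for Saa2, Saa3, Lcn2 and Lrg1. The shown windows of these genes overlap those positions, and the Lcn2 window lies wholly inside them.

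The main pattern was in hormone-sensing cells: 6 of the 8 genes, Saa1, Saa2, Saa3, Lcn2, Hp and Lrg1, stood far lower with giredestrant than with vehicle in both genotypes. Counts were summed per library and class and given as CPM, counts scaled to the summed UMIs of that class. A relative log2 ratio is the log2 ratio of 2 CPM values minus the median of all genes with at least 20 UMIs in the pair. That median was 0.34 in Y541S and 0.44 in WT for giredestrant over vehicle in these cells. A gene counts as higher or lower when its relative ratio is at least 2-fold. Groups could not be tested against each other, since each is a single library. The intervals given are exact 95% intervals for counting error only and do not cover differences between mice, libraries or cells.

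**Figure D1:**
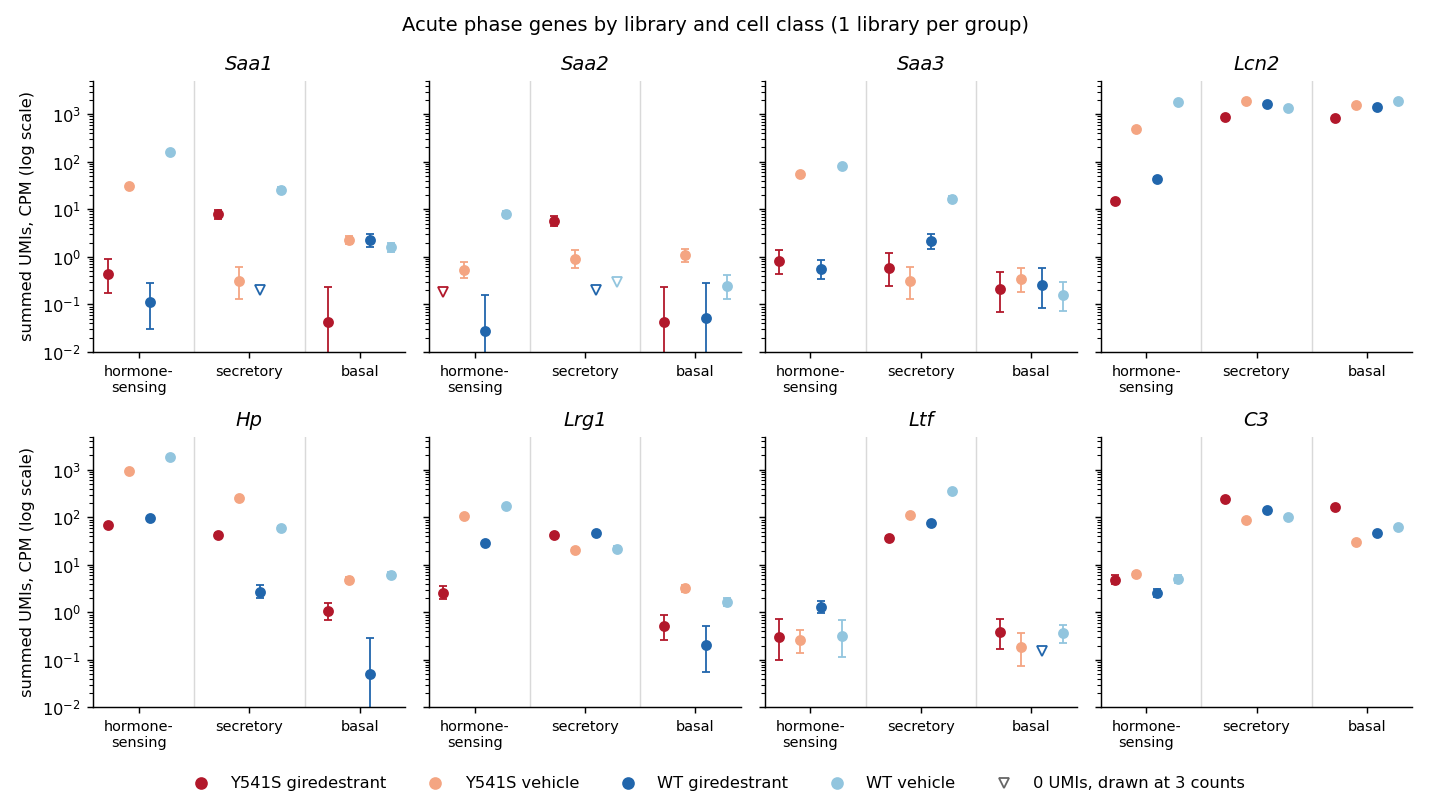
Levels of the 8 genes in CPM (log axis) in the 4 libraries and 3 cell classes, with exact Poisson 95% intervals; open triangles mark 0 UMIs, drawn at 3 counts. In hormone-sensing Krt14-low cells the 2 giredestrant libraries lie below the 2 vehicle libraries for Saa1, Saa2, Saa3, Lcn2, Hp and Lrg1, while Lcn2 lies between 835 and 1941 CPM in every library of the secretory and basal classes.

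Saa1 stood at 0.434 CPM in Krt14-low hormone-sensing cells of Y541S giredestrant, 31.3 CPM in Y541S vehicle, 0.112 CPM in WT giredestrant and 164 CPM in WT vehicle. Both giredestrant libraries were near 0, with 7 and 4 UMIs in all, and the relative log2 ratio of giredestrant over vehicle was -6.52 (-7.83 to -5.47) in Y541S and -10.95 (-12.83 to -9.59) in WT. Saa2, the near copy of Saa1, was scarce: it had 0 UMIs in Y541S giredestrant, 29 in Y541S vehicle, 1 in WT giredestrant and 149 in WT vehicle. In Y541S it was at least 2.86-fold lower with giredestrant, taking 0 as 3 counts in that library, and in WT its relative log2 ratio was -8.59 (-13.90 to -6.09). In WT vehicle 1 cell held 77 of the 149 Saa2 UMIs, and the WT ratio ranged from -10.14 to -5.95 over the alternatives. Saa3, the form made outside the liver in mice, stood at 0.807 CPM in Y541S giredestrant, 54.2 CPM in Y541S vehicle, 0.562 CPM in WT giredestrant and 80.1 CPM in WT vehicle. Its relative log2 ratio was -6.41 (-7.32 to -5.64) in Y541S and -7.59 (-8.31 to -6.96) in WT.

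Lcn2 stood at 14.8 CPM in Y541S giredestrant, 494 CPM in Y541S vehicle, 44.5 CPM in WT giredestrant and 1781 CPM in WT vehicle. The relative log2 ratio was -5.41 (-5.60 to -5.22) in Y541S and -5.76 (-5.84 to -5.69) in WT, and -4.38 and -3.83 with barcodes of several gates counted. The values put Lcn2 at percentile 0.132 of 16715 genes in Y541S and 0.541 of 16072 genes in WT. Hp stood at 68.8 CPM in Y541S giredestrant, 962 CPM in Y541S vehicle, 96.2 CPM in WT giredestrant and 1836 CPM in WT vehicle. Of the 6 genes it was the one with the highest level left under giredestrant, with relative log2 ratios of -4.15 (-4.24 to -4.07) in Y541S and -4.69 (-4.75 to -4.64) in WT.

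Lrg1 stood at 2.61 CPM in Y541S giredestrant, 107 CPM in Y541S vehicle, 28.5 CPM in WT giredestrant and 173 CPM in WT vehicle. Its relative log2 ratio was -5.71 (-6.18 to -5.27) in Y541S and -3.04 (-3.15 to -2.94) in WT. The genotypes differed most on this gene in the direction of a larger difference in Y541S: the Y541S ratio minus the WT ratio was -2.66 (-3.11 to -2.21) on the log2 scale. The same difference was 0.36 (0.16 to 0.55) for Lcn2, 0.54 (0.44 to 0.64) for Hp, 1.18 (0.17 to 2.19) for Saa3 and 4.44 (2.66 to 6.21) for Saa1, each in the direction of a larger difference in WT. These differences were not tested, since they compare 4 single libraries.

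Ltf and C3 were scarce in these cells. Ltf stood at 0.310 CPM in Y541S giredestrant, 0.257 CPM in Y541S vehicle, 1.32 CPM in WT giredestrant and 0.320 CPM in WT vehicle, and it had too few UMIs for a ratio in Y541S. In WT it was higher with giredestrant, with a relative log2 ratio of 1.60 (0.37 to 3.12) that rests on 47 and 6 UMIs. C3 stood at 4.90 CPM in Y541S giredestrant, 6.29 CPM in Y541S vehicle, 2.56 CPM in WT giredestrant and 5.02 CPM in WT vehicle. Its relative log2 ratio was -0.70 (-1.08 to -0.35) in Y541S and -1.41 (-1.85 to -0.98) in WT, and the WT value changes sign when barcodes passing several gates are counted (0.95) or the gate thresholds are doubled (0.13).

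In counts, 6 of the 7 members with at least 20 UMIs were at least 2-fold lower with giredestrant in Y541S hormone-sensing cells and none was higher. Of all 16715 genes in that pair 12.6% were lower and 13.6% higher. In WT 7 of 8 members were lower and 1, Ltf, was higher, beside 12.6% lower and 13% higher of all 16072 genes. The Krt14-low class of Y541S giredestrant also stood below Y541S vehicle in some luminal markers. Krt8 was at 2070 CPM in Y541S giredestrant and 4268 CPM in Y541S vehicle. Krt18 was at 1798 CPM in Y541S giredestrant and 4500 CPM in Y541S vehicle, and Ly6a at 43.2 CPM in Y541S giredestrant and 370 CPM in Y541S vehicle. In WT, Krt8 was at 3699 CPM with giredestrant and 3331 CPM with vehicle, and Krt18 at 4624 CPM with giredestrant and 3737 CPM with vehicle. Ly6a was lower with giredestrant in WT too, at 408 CPM against 732 CPM with vehicle. Other markers of hormone-sensing cells were not low in Y541S giredestrant. Tnfsf11 was at 269 CPM there, 85.9 CPM in WT giredestrant and 115 CPM in WT vehicle. Wnt4 was at 574 CPM there, 413 CPM in WT giredestrant and 231 CPM in WT vehicle. The basal markers other than Krt14 summed to 59.0 CPM in Y541S giredestrant, 5.68 CPM in Y541S vehicle, 6.29 CPM in WT giredestrant and 8.23 CPM in WT vehicle. The part of these shifts in the member ratios was not tested. The median relative log2 ratio of the members was -5.41 in Y541S and -5.23 in WT, where the median of all genes is 0 by construction.

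**Figure D2:**
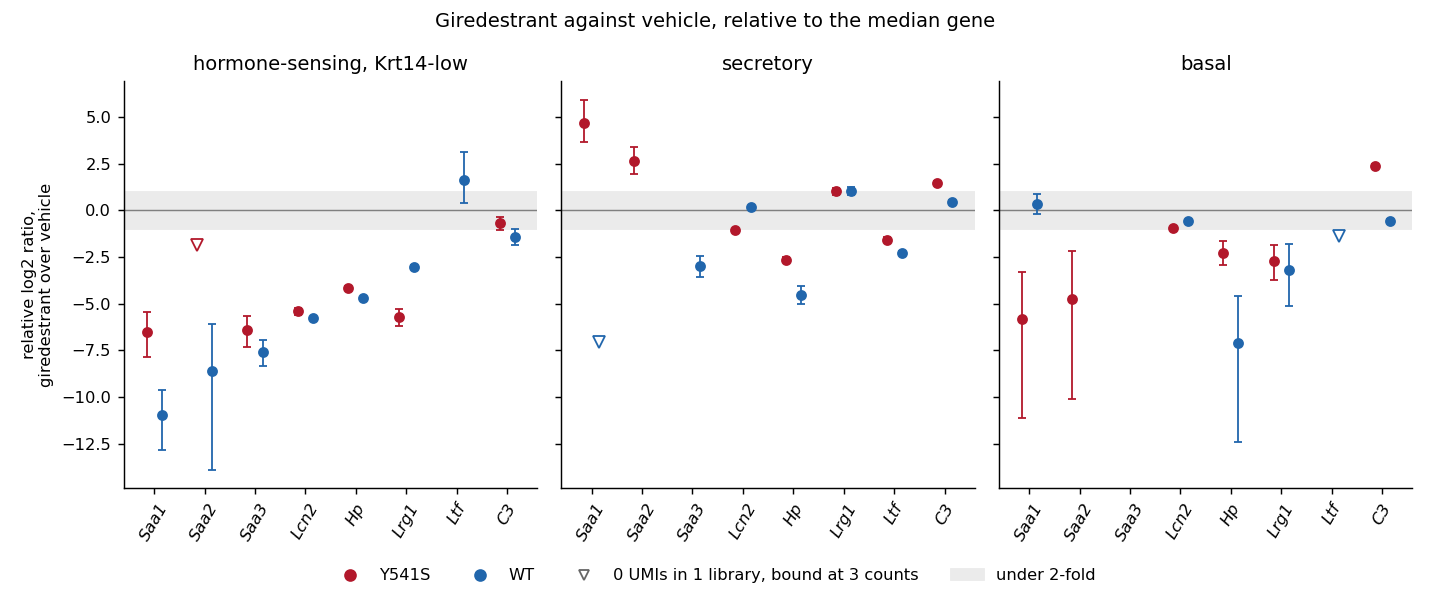
Relative log2 ratios of giredestrant over vehicle for the 8 genes in 3 cell classes, Y541S beside WT; bars are exact 95% intervals for counting error, open triangles are bounds where 1 library had 0 UMIs, and genes under 20 UMIs in a pair are left out. In hormone-sensing cells Saa1, Saa2, Saa3, Lcn2, Hp and Lrg1 lie below the 2-fold band in both genotypes, while in secretory and basal cells the genes fall on both sides of 0.

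The lower levels came with fewer cells holding a UMI. With every cell thinned to 3000 UMIs, Hp was found in 11.2% (9.61 to 13.0) of hormone-sensing Krt14-low cells in Y541S giredestrant, 66.4% (64.3 to 68.4) in Y541S vehicle, 19.2% (16.8 to 21.7) in WT giredestrant and 76.9% (73.3 to 80.1) in WT vehicle. Without thinning the share was 25.8% in Y541S giredestrant, 92.1% in Y541S vehicle, 59.8% in WT giredestrant and 91.7% in WT vehicle. The median depth of the class was 9260 UMIs in Y541S giredestrant, 25121 in Y541S vehicle, 29584 in WT giredestrant and 28914 in WT vehicle. The share in basal cells, the class with the fewest Hp cells in each library, was 0.736% or less. Lcn2 was found in 3.11% of thinned hormone-sensing cells in Y541S giredestrant, 31.8% in Y541S vehicle, 3.42% in WT giredestrant and 58.1% in WT vehicle. For Lcn2 this class had the lowest share in each library, so part of a low share can be free RNA, which was not measured. Lrg1 was found in 0.592% of cells in Y541S giredestrant, 20.3% in Y541S vehicle, 7.44% in WT giredestrant and 29.3% in WT vehicle. Saa1 was found in 0.0740% in Y541S giredestrant, 4.39% in Y541S vehicle, none in WT giredestrant and 13.1% in WT vehicle. Saa3 was found in 0.148% in Y541S giredestrant, 2.47% in Y541S vehicle, none in WT giredestrant and 4.85% in WT vehicle. After thinning, 0 of 1022 WT giredestrant cells allows a share of up to 0.360% at that depth. Without thinning, Saa1 was found in 0.387% and Saa3 in 1.64% of the WT giredestrant cells, so the limit covers only what 3000 UMIs can show.

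In the vehicle libraries several of the genes were also found together in the same cells. In the Y541S vehicle library 36.0% of the 644 thinned cells with an Lcn2 UMI also had Lrg1, against 13.0% of the cells without. In WT vehicle 42.6% of 359 cells with Lcn2 had Lrg1, against 10.8% of those without, and 18.9% had Saa1, against 5.02%. With giredestrant only 42 thinned cells in Y541S and 35 in WT had an Lcn2 UMI. Hp was in 11.9% of the 42, against 11.2% of those without, and in 25.7% of the 35, against 18.9%. At least 2 of the 6 genes were found in 0.444% of cells in Y541S giredestrant, 34.8% in Y541S vehicle, 2.84% in WT giredestrant and 57.8% in WT vehicle. This share follows how many cells hold each gene on its own, so it does not show whether the genes go together. The Saa genes were concentrated in few cells: 1 cell held 390 of the 3072 Saa1 UMIs in WT vehicle and 521 of the 1499 Saa3 UMIs. The 10% of thinned cells with most UMIs held 94.4% of the Saa1 UMIs there, against 45.3% for Hp. These 2 shares depend on how many thinned cells hold a UMI at all, 13.1% for Saa1 and 76.9% for Hp.

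**Figure D3:**
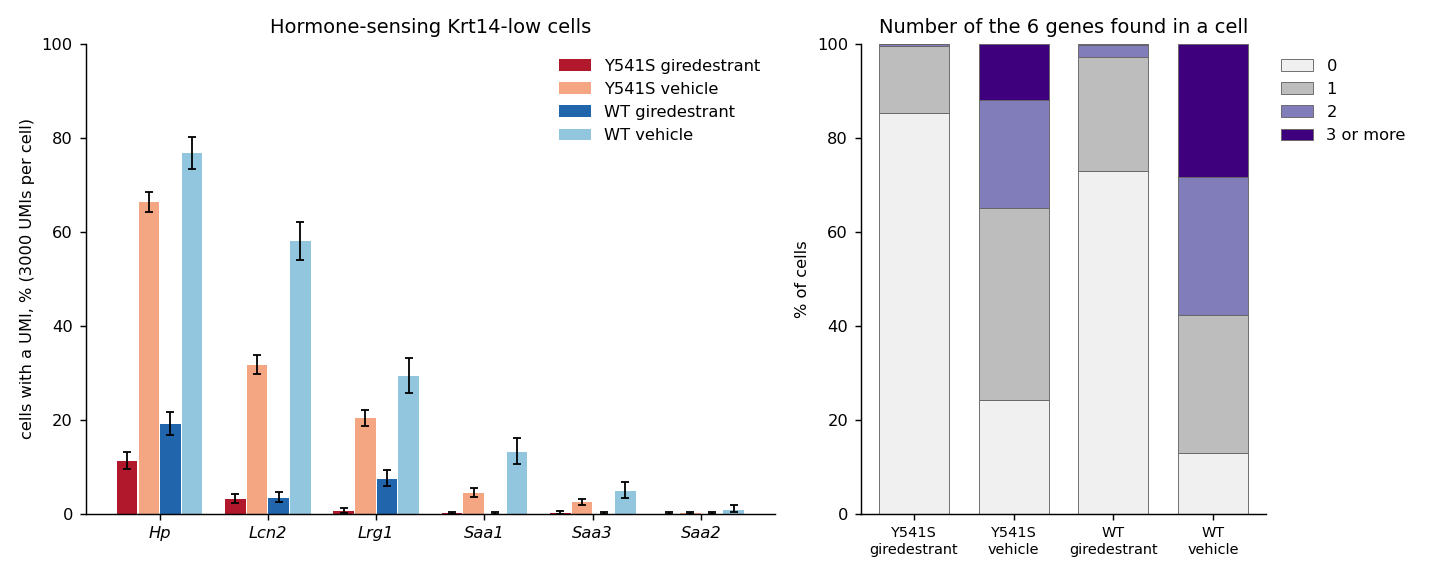
Left, share of hormone-sensing Krt14-low cells with at least 1 UMI after thinning to 3000 UMIs per cell, with exact binomial 95% intervals, for 6 genes and 4 libraries. Right, share of those cells in which 0, 1, 2 or at least 3 of the 6 genes were found; 2 or more were found in 0.444% of cells in Y541S giredestrant and 57.8% in WT vehicle.

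Y541S hormone-sensing cells stood below WT cells under vehicle for 4 of the 8 members: Saa1, Saa2, Lcn2 and Hp. Their relative log2 ratios of Y541S over WT were -2.52 (-2.60 to -2.43), -4.03 (-4.66 to -3.45), -1.98 (-1.99975 to -1.95) and -1.06 (-1.08 to -1.04). Of the 149 Saa2 UMIs of WT vehicle 77 were in 1 cell, and the Saa2 ratio ranged from -4.22 to -2.52 over the alternatives. Of all 16221 genes 5.05% were lower and 5.43% higher. Hp was at the edge of the 2-fold threshold, and within 2-fold at -0.93 without subtracting the median. Saa3 (-0.69), Lrg1 (-0.82), Ltf (-0.45) and C3 (0.20) were within 2-fold, and Saa3 was at 0.50 with the gate thresholds doubled. Under giredestrant 3 of the 6 members with enough UMIs were lower in Y541S than in WT, Lcn2 at -1.61 (-1.81 to -1.41), Lrg1 at -3.47 (-3.95 to -3.02) and Ltf at -2.11 (-3.79 to -0.78), and none was higher, beside 11.6% lower and 14.6% higher of all 16467 genes. Saa1 and Saa2 had 11 or fewer UMIs in that pair. In WT giredestrant 1 cell held 413 of the 1582 Lcn2 UMIs. The thinned share of cells with Lcn2 under giredestrant was 3.11% in Y541S and 3.42% in WT, and the Lcn2 ratio ranged from -2.66 to -1.24 over the alternatives. The Ltf ratio rests on 5 and 47 UMIs, with 15 of the 47 in 1 cell. It ranged from -3.44 to -0.91, the smallest value being within 2-fold. The comparisons across drug and genotype share libraries, so their counts are not independent.

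Markers of other cell types were summed in the same cells. The 4 hepatocyte markers summed to 1.24 CPM or less in Krt14-low hormone-sensing cells of each library, and the 6 adipocyte markers to 0.365 CPM or less. The 8 neutrophil markers summed to 0.558 CPM in Y541S giredestrant, 1.71 CPM in Y541S vehicle, 0.534 CPM in WT giredestrant and 9.77 CPM in WT vehicle. S100a8 made 9.51 CPM of the WT vehicle sum, and S100a9, Ly6g, Retnlg and Mmp8 had 0 UMIs in this class in every library. The 7 macrophage markers summed to 4.49 to 10.8 CPM. The 6 fibroblast markers summed to 7.20 CPM in Y541S giredestrant, 136 CPM in Y541S vehicle, 25.8 CPM in WT giredestrant and 83.4 CPM in WT vehicle. Dcn made 132 CPM of the Y541S vehicle sum and 82.7 CPM of the WT vehicle sum, and was lower with giredestrant in both genotypes, as were 6 of the members. The other 5 fibroblast markers were each at 1.92 CPM or less in every library and were all higher with giredestrant in WT, with Col1a1 at 1.49 CPM in WT giredestrant and 0 UMIs in WT vehicle. The part of fibroblast RNA in the member levels was not tested.

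The Krt14-high hormone-sensing cells could be described only in the Y541S giredestrant library, where they were set beside the Krt14-low cells of the same library. Saa1 stood at 2.46 CPM in Krt14-high cells and 0.434 CPM in Krt14-low cells, a relative log2 ratio of 2.76 (1.49 to 4.23) that rests on 22 and 7 UMIs. In Krt14-high cells 12 of the 22 were in 1 cell, and without it the pair has fewer than the 20 UMIs needed. Hp stood at 8.50 CPM in Krt14-high cells and 68.8 CPM in Krt14-low cells, a relative log2 ratio of -2.75 (-3.11 to -2.42). Lcn2 stood at 24.6 CPM in Krt14-high cells and 14.8 CPM in Krt14-low cells, a ratio just inside 2-fold (0.998). In all, 1 member was higher and 1 lower of the 5 with enough UMIs, beside 11.4% higher and 10.7% lower of all 15026 genes, with a median of -0.26 subtracted. In both kinds of hormone-sensing cell Lcn2 and Saa1 stayed far below the vehicle levels given above.

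In secretory cells members were higher as well as lower with giredestrant. Lcn2 stood at 889 CPM in Y541S giredestrant, 1857 CPM in Y541S vehicle, 1631 CPM in WT giredestrant and 1374 CPM in WT vehicle, so the giredestrant library was the lower one in Y541S (relative log2 ratio -1.07, -1.10 to -1.04) and the slightly higher one in WT (0.19, 0.16 to 0.22). The thinned share of secretory cells with an Lcn2 UMI was 80.5% to 93.1%. Ltf, which belongs to this class, stood at 37.2 CPM in Y541S giredestrant, 110 CPM in Y541S vehicle, 74.8 CPM in WT giredestrant and 350 CPM in WT vehicle. Both giredestrant libraries were lower, with relative log2 ratios of -1.57 (-1.72 to -1.43) in Y541S and -2.28 (-2.38 to -2.19) in WT. Ltf was also uneven, found in 6.96% of thinned secretory cells in Y541S giredestrant and 26.7% in WT vehicle.

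C3 stood at 245 CPM in secretory cells of Y541S giredestrant, 88.6 CPM in Y541S vehicle, 144 CPM in WT giredestrant and 102 CPM in WT vehicle. It was higher with giredestrant in Y541S, at 1.46 (1.38 to 1.54), and within 2-fold in WT, at 0.44 (0.33 to 0.54). Lrg1 stood at 42.5 CPM in Y541S giredestrant, 20.96 CPM in Y541S vehicle, 46.5 CPM in WT giredestrant and 21.9 CPM in WT vehicle. It was thus higher with giredestrant in secretory cells of both genotypes, by 1.01 (0.84 to 1.19) in Y541S and 1.03 (0.81 to 1.26) in WT, and lower in hormone-sensing cells of both. The secretory value is at the edge of the 2-fold threshold and was 0.44 in Y541S and 0.45 in WT with barcodes of several gates counted. Hp stood at 42.1 CPM in Y541S giredestrant, 260 CPM in Y541S vehicle, 2.75 CPM in WT giredestrant and 61.0 CPM in WT vehicle. Its relative log2 ratio was -2.64 (-2.77 to -2.50) in Y541S and -4.53 (-5.02 to -4.07) in WT. The secretory Hp level was 61.2% of the hormone-sensing one in Y541S giredestrant, 27.1% in Y541S vehicle, 2.86% in WT giredestrant and 3.33% in WT vehicle. These levels leave out barcodes of several gates. In WT giredestrant 157 such barcodes held 523 Hp UMIs, against 41 in the 607 secretory cells.

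Several Saa values in secretory cells rested on single cells, in WT above all. Saa1 had 93 UMIs in 13 of 1330 cells of Y541S giredestrant (22 in the top cell), 8 UMIs in 4 of 1553 cells of Y541S vehicle, 0 UMIs in WT giredestrant and 267 UMIs in WT vehicle, of which 1 cell held 265. All 169 Saa3 UMIs of WT vehicle secretory cells were in 1 cell, and 31 of the 32 in WT giredestrant. By CPM Saa1 (4.68, 3.64 to 5.93) and Saa2 (2.64, 1.95 to 3.38) were higher with giredestrant in Y541S secretory cells. With barcodes of several gates counted, Saa1 was within 2-fold there (0.80). Counted with these values, 4 members were higher and 3 lower of 7 in Y541S secretory cells, beside 7.8% higher and 6.57% lower of all 15225 genes. In WT 1 was higher and 4 lower of 7, beside 3.61% and 4.09%, and 2 were lower, Hp and Ltf, once the cell with most UMIs was left out for each gene. Between genotypes under vehicle, 2 members were higher in Y541S (Hp at 2.12, 2.002 to 2.24, and Saa2) and 3 lower (Saa1, Saa3 and Ltf, the last at -1.64, -1.71 to -1.57), beside 2.61% and 4.32% of all genes. Without that 1 cell per gene, 1 was higher and 1 lower. Under giredestrant 3 were higher in Y541S (Hp at 4.03, 3.57 to 4.53, Saa1 and Saa2) and 1, Saa3, was lower, beside 7.94% and 7.64%. Saa1 and Saa2 had 93 and 68 UMIs in Y541S, each in 13 cells, and 0 UMIs in WT. Their ratios are therefore bounds, and counts may be shared between these 2 genes. Over the alternatives the Hp ratio ranged from 0.9997 to 2.35 under vehicle and from 0.91 to 4.49 under giredestrant. The lowest of these Hp values are within 2-fold.

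Basal cells held Lcn2 and C3, and the other 6 members stood at 6.24 CPM or less in every library. Lcn2 stood at 835 CPM in Y541S giredestrant, 1538 CPM in Y541S vehicle, 1428 CPM in WT giredestrant and 1941 CPM in WT vehicle. Both giredestrant libraries were lower by less than 2-fold, at -0.95 (-0.97 to -0.93) in Y541S and -0.60 (-0.62 to -0.58) in WT. C3 stood at 167 CPM in Y541S giredestrant, 30.5 CPM in Y541S vehicle, 47.1 CPM in WT giredestrant and 63.5 CPM in WT vehicle. It was higher with giredestrant in Y541S, at 2.39 (2.29 to 2.48), and slightly lower in WT, at -0.59 (-0.69 to -0.48), and the 2 ratios differed by 2.97 (2.83 to 3.11). The thinned share of basal cells with a C3 UMI was 34.5% in Y541S giredestrant, 8.06% in Y541S vehicle, 13.2% in WT giredestrant and 14.9% in WT vehicle, so the order of the shares follows that of the levels.

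Of the basal members with enough UMIs, 1 was higher (C3) and 4 lower (Saa1, Saa2, Hp and Lrg1) of 6 with giredestrant in Y541S, beside 7.29% and 4.12% of all genes. The Lrg1 ratio there was -2.73 and turned to 0.57 with the highest Scrublet scores removed. In WT none was higher and 3 were lower (Hp, Lrg1 and Ltf) of 6, beside 6.08% and 6.65%. That Ltf call rests on 0 UMIs with giredestrant and 21 with vehicle, 13 of the 21 in 1 cell. The WT Hp call rests on 1 and 362 UMIs, with 140 of the 362 in 1 cell. Apart from C3 these calls concern genes at 6.24 CPM or less: basal Hp was 0.504% of the hormone-sensing Hp level in Y541S vehicle and 0.340% in WT vehicle, and 104 of the 122 basal Lrg1 UMIs of Y541S vehicle were in 1 cell. Between genotypes under vehicle 2 were higher in Y541S (Saa2, and Saa3 at 1.12, -0.22 to 2.53, on 13 and 9 UMIs, an interval that includes 0) and 1 lower (C3 at -1.06, -1.16 to -0.97) of 8, beside 2.73% and 5.01%. Under giredestrant 2 were higher in Y541S (C3 at 1.93, 1.83 to 2.04, and Hp) and 1 lower (Saa1) of 4, beside 8.02% and 6.67%. The Hp call there rests on 25 UMIs in Y541S and 1 in WT, and the Saa1 call on 1 and 44.

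Other genes of the same response were followed in fixed lists in hormone-sensing cells. Of 26 other acute phase and complement genes, 12 had enough UMIs in each pair. In Y541S 3 were higher and 6 lower with giredestrant (median -0.58), and in WT 2 were higher and 8 lower (median -2.28). For this and the following lists, the shares of all genes are 13.6% higher and 12.6% lower in Y541S and 13% higher and 12.6% lower in WT. The ferroxidase gene Cp was lower in both: it stood at 8.50 CPM in Y541S giredestrant, 85.2 CPM in Y541S vehicle, 5.65 CPM in WT giredestrant and 364 CPM in WT vehicle. The protease inhibitor gene Slpi differed in direction between the genotypes, at 605 CPM in Y541S giredestrant, 133 CPM in Y541S vehicle, 3.06 CPM in WT giredestrant and 705 CPM in WT vehicle. The complement gene C2 stood at 10.98 CPM in Y541S giredestrant, 49.1 CPM in Y541S vehicle, 7.95 CPM in WT giredestrant and 68.3 CPM in WT vehicle. Among the genes of largest ratio were also C4b (-4.02 in Y541S), C1s1 (3.62 in Y541S), C1ra (4.21 in WT) and Serpina3g (-4.91 in WT with its 0 UMIs under giredestrant taken as 3 counts), which have close copies in the genome, so their counts are uncertain.

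The list of 25 receptors and signal transducers of the inducing pathways, feedback inhibitors included, stayed mostly within 2-fold, 22 in Y541S and 19 in WT. In Y541S 1 was higher and 2 lower with giredestrant (median -0.03), and in WT 4 were higher and 2 lower (median 0.16), counts not far from the shares of all genes. In Y541S the genes of largest ratio were Il1rap, an IL-1 receptor subunit (1.98), Il17rc (-1.27), and the C/EBP genes Cebpd (-1.14) and Cebpa (-0.93, within 2-fold). In WT they were Birc3 (1.79), the IL-6 receptor gene Il6ra (-1.76), the STAT3 feedback inhibitor gene Socs3 (1.67) and Bcl3 (1.14). Socs3 stood at 70.1 CPM in Y541S giredestrant, 93.8 CPM in Y541S vehicle, 416 CPM in WT giredestrant and 96.6 CPM in WT vehicle, so the WT giredestrant library was the high one. Stat3 itself was within 2-fold, at 0.29 in Y541S and 0.51 in WT. Of 10 inducing cytokine genes, 2 were higher and none lower of 5 with enough UMIs in Y541S (Lif at 1.26 and Il11 at 1.22), and 1 was higher and none lower of 4 in WT (Lif at 1.28). Il6 and Tnf were within 2-fold in Y541S, as were Tnf, Csf3 and Il11 in WT. Of 9 receptor and clearance genes 5 had enough UMIs. In Y541S 1 was higher, the scavenger receptor gene Lrp1 at 2.87, and in WT 2, Lrp1 at 2.32 and Tlr2 at 1.25, with none lower in either.

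**Figure D4:**
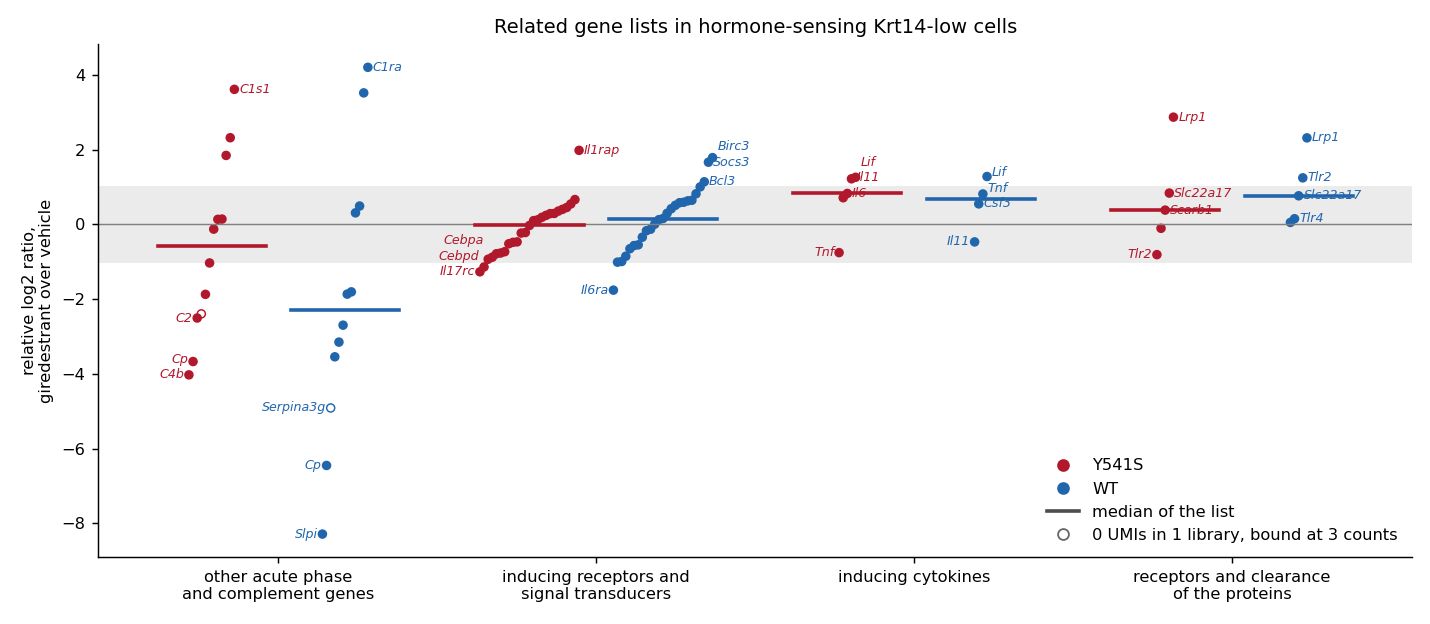
Relative log2 ratios of giredestrant over vehicle in hormone-sensing Krt14-low cells for 4 lists of related genes, Y541S beside WT; each point is a gene with at least 20 UMIs in the pair, bars are list medians and the 4 genes of largest size are named. The acute phase and complement list has medians of -0.58 in Y541S and -2.28 in WT, while the receptors and signal transducers lie around 0.

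The same lists were counted between the genotypes in these cells, where the shares of all genes are 5.43% higher and 5.05% lower under vehicle and 14.6% higher and 11.6% lower under giredestrant. Under vehicle 1 of 11 acute phase and complement genes was higher and 7 lower in Y541S (median -1.37), with Serpina3g at -4.21, Slpi at -2.54, Cp at -2.22 and Lbp at -1.84. Of the 25 receptors and transducers none was higher and 1 lower, Il1r1 at -1.35. Under giredestrant 1 of 11 acute phase and complement genes was higher, Slpi at 7.61, and 5 were lower, and of the 25 receptors and transducers 1 was higher (Il1rap at 1.43) and 5 lower, Socs3 at -2.58 and Cebpd at -2.05 among them.

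Across the 13 combinations of library and class with at least 50 cells, the gene whose log2(CPM + 1) followed Saa1 most closely was the kallikrein gene Klk1b1 (Pearson r 0.89), which was also closest to Saa3 (0.93). Lcn2 was closest to Rexo2 (0.96), Hp to Elovl1 (0.96), Lrg1 to Sec11c (0.96), Ltf to Slc5a7 (0.99) and C3 to CT030197.1 (0.98), among 11161 genes. Saa1 and Saa3 had an r of 0.87 with each other and Hp and Lrg1 of 0.79, while Lcn2 and Hp had -0.09. The combinations share libraries, depths and the gates, so these values describe likeness over these 13 points only.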

How the data were processed

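The authors deposited 10x matrices of UMI counts per gene and barcode, whole numbers with no normalization, made with Cell Ranger 6.0.1 per the file headers on GRCm38 per the submitters' processing notes. The deposited barcode and gene lists name the matrix columns and rows. Barcodes with at least 1000 UMIs, 500 genes and at most 15% mitochondrial UMIs were kept, 25950 of 30062. Of these, 818 passed several gates and 2280 none, and both groups were left out. Counts were summed per library and class. CPM carries exact Poisson intervals, ratios exact conditional binomial intervals and shares exact Clopper-Pearson intervals, all at 95% and for counting error only. No test was run, since each group has 1 library and the labels name no replicates. A class needed 50 cells. A gene with 0 UMIs in 1 library of a pair was placed at a floor of 3 counts per library. The ratio script was checked on simulated counts. All 8 members are named, and in each list the 4 genes of largest ratio. Members, lists and rules were chosen with earlier results of these data known. The set of Krt14-high cells beside Krt14-low cells was added after the cells per class were seen. Doublets were not removed in the main values. Scrublet's automatic threshold marked 0.0282% of 7082 barcodes in WT vehicle, which is too few to be usable, so an alternative removed the highest Scrublet scores instead (0.8% of barcodes per 1000 barcodes). TMM factors came from edgeR 4.0.16, and Python 3.11.15 with scipy 1.17.1 and scanpy 1.11.5 did the rest. Gene positions come from GENCODE M21 on GRCm38 and promoters from RefSeq. The alternatives were 12 planned settings of scaling, gates, filters and threshold, and 2 added after seeing the data.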

Additional observations from a re-analysis of the deposited data

Results flagged for a closer look

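The ratios of giredestrant over vehicle had opposite signs in the genotypes, with counting intervals that exclude 0 on both sides, for 3 members, and none of these differences was tested. In secretory cells Lcn2 was at -1.07 in Y541S and 0.19 in WT, a difference of -1.26 on the log2 scale, and the WT value ranged from -0.24 to 0.29 over the alternatives. In basal cells C3 was at 2.39 in Y541S and -0.59 in WT, a difference of 2.97. In secretory cells Saa1 was at 4.68 in Y541S and -7.07 in WT, a difference of 11.74 with the 0 UMIs of WT giredestrant taken as 3 counts. That WT value rests on 1 cell, which held 265 of the 267 Saa1 UMIs of WT vehicle secretory cells.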

How the results depend on the processing

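No paired analysis was possible because each group has 1 library and the labels give no replicate numbers. For the same reason no library could be left out, and differences between mice cannot be told apart from differences between groups. In hormone-sensing cells Saa1, Saa3, Lcn2, Hp and Lrg1 were at least 2-fold lower with giredestrant in both genotypes under every setting that gave a value, in that order with Y541S relative log2 ratios of -6.71 to -5.04, -6.97 to -6.02, -5.88 to -4.38, -4.63 to -3.81 and -6.23 to -5.36, and WT ratios of -12.18 to -10.08, -8.07 to -6.56, -6.16 to -3.83, -4.83 to -4.25 and -3.13 to -2.60. All 24 counts of members higher or lower stayed within 1.5 times under TMM factors and under a minimum of 3000 UMIs per barcode. The other settings moved some counts, and the causes were not tested. For giredestrant against vehicle in Y541S, secretory members higher were 2 with barcodes of several gates counted, and basal members lower were 2 with at least 100 counts. In WT, hormone-sensing members higher were 0 with barcodes of several gates counted, with means over cells and with at least 100 counts; secretory members higher were 0 with several gates; secretory members lower were 2 without the barcode of most UMIs; basal members lower were 5 at 1.5-fold. For Y541S against WT under vehicle, secretory members higher were 1 with several gates, with at least 100 counts and without the barcode of most UMIs, which also gave 1 lower; basal members higher were 1 with means over cells and 0 with at least 100 counts; basal members lower were 2 with the median of genes at 20 CPM or more, with several gates, with the highest Scrublet scores removed, at 1.5-fold and without the barcode of most UMIs. Under giredestrant, hormone-sensing members higher were 1 with the Krt14 split at 6, with means over cells, at 1.5-fold and without the barcode of most UMIs, and 2 with no minimum of counts and with Krt14-high cells counted. Secretory members higher were 1 with at least 100 counts, and secretory members lower were 2 without subtracting the median and with means over cells, 3 at 1.5-fold, and 0 with gates doubled, with at least 100 counts and without the barcode of most UMIs. Basal members higher were 1 with Scrublet scores removed and with at least 100 counts and 4 with no minimum, and basal members lower were 0 with at least 100 counts and 2 at 1.5-fold. Of the ratios at least 2-fold in the main values, those that turned sign were the giredestrant ratios of C3 and Lrg1. C3 in WT hormone-sensing cells was 0.95 with several gates and 0.13 with gates doubled. Lrg1 in Y541S basal cells was 0.57 with Scrublet scores removed. Ratios within 2-fold changed sign more often. For Y541S against WT under vehicle, Saa3 ranged from -1.12 to 0.50 in hormone-sensing cells and Lrg1 from -1.67 to 1.78 in basal cells. Depth limits Saa2 and Ltf in hormone-sensing cells and the Saa genes elsewhere, which rest on few UMIs or few cells.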

Other observations

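In the Y541S giredestrant library, 9 of 25 receptors, signal transducers and feedback inhibitors of the pathways that induce acute phase proteins were at least 2-fold higher in Krt14-high than in Krt14-low hormone-sensing cells and 1 was lower, beside 11.4% higher and 10.7% lower of all 15026 genes, and the list's median was 0.60 on the relative log2 scale. Tnfaip3, a feedback inhibitor of NF-kB signalling, stood at 54.3 CPM in Krt14-high cells and 14.7 CPM in Krt14-low cells, and Osmr, the oncostatin M receptor gene, at 216 CPM in Krt14-high cells and 100 CPM in Krt14-low cells. All 4 cytokine genes with enough UMIs were higher, with Csf3 at 72.9 CPM in Krt14-high cells and 13.7 CPM in Krt14-low cells and Lif at 31.4 CPM in Krt14-high cells and 9.49 CPM in Krt14-low cells. Of 11 other acute phase and complement genes 6 were higher and 3 lower, among them Cp at 39.9 CPM in Krt14-high cells and 8.50 CPM in Krt14-low cells, and Slpi at 54.2 CPM in Krt14-high cells and 605 CPM in Krt14-low cells. The basal markers other than Krt14, which splits the classes, summed to 296 CPM in Krt14-high cells and 59.0 CPM in Krt14-low cells, and their part in these values was not tested.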
